A study of Arabidopsis thaliana with 36 samples.

Results

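The stele of the Arabidopsis thaliana root is described here by 3 arrays of sorted stele cells on standard medium, set against the 15 arrays of the 5 other sorted populations on the same medium, out of 36 arrays in all. Arrays were chosen by their labels alone, and every probe set of the array was considered. All cells came from roots of Columbia seedlings 6 days after germination whose walls were digested before fluorescence-activated sorting. The stele line carried WOL::GFP, and the other lines carried WER::GFP (epidermis and lateral root cap), PET111 (columella root cap), CORTEX (cortex), SCR::GFP (endodermis and quiescent center) and S32 (protophloem). A population is therefore the set of cells in which its reporter was active, and the labels do not divide the stele further. The other 18 arrays are the same 6 lines after 1 h on 140 mM NaCl, and they served as a separate set of stele arrays. The study asked how identity along the radial axis of the root relates to the response to salt. Nothing in the labels ties the 3 replicates of a population to different plantings. The p-values therefore reflect array-to-array spread only, some of which may be technical.

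The stele is the central cylinder of the root. It holds the xylem and phloem, the procambial cells from which both are made, and the pericycle, from which lateral roots start. Its pattern is set by auxin and cytokinin, and LHW, a basic helix-loop-helix factor, acts with partners in the auxin arm of that pattern to drive the divisions that make the vascular cell files. Close to the tip many stele cells still divide, while further up xylem cells build a secondary wall and die.

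Signals are linear MAS5 values, and differences are on the scale of log2(signal + 16), stele minus the mean of the 5 other population means, unless another scale is named. Replicate 3 of the stele stood apart from replicates 1 and 2. Over the 16740 probe sets tested, replicates 1 and 2 correlated at 0.968, while replicate 3 correlated with them at 0.853 and 0.857. Its correlations with the 3 endodermis arrays, 0.851 to 0.872, and with the 3 cortex arrays, 0.843 to 0.845, were of the same size, and its highest with any standard array or salt-treated stele array was with replicate 3 of the latter, 0.929. Probe sets typical of another population were picked without any stele array, as those at least 4-fold above the 4 remaining non-stele populations. For the 194 typical of endodermis the median signal was 72.6 and 62.0 in stele replicates 1 and 2 and 153 in replicate 3, against 967 in endodermis itself. For the 112 typical of cortex it was 62.2, 44.9 and 125, against 831 in cortex. Of the 210 probe sets typical of epidermis, 84 were over 2-fold higher in replicate 3 than in the mean of the other replicates. Those typical of protophloem were lower in replicate 3, by a median log2 difference of -0.44.

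**Figure D1:**
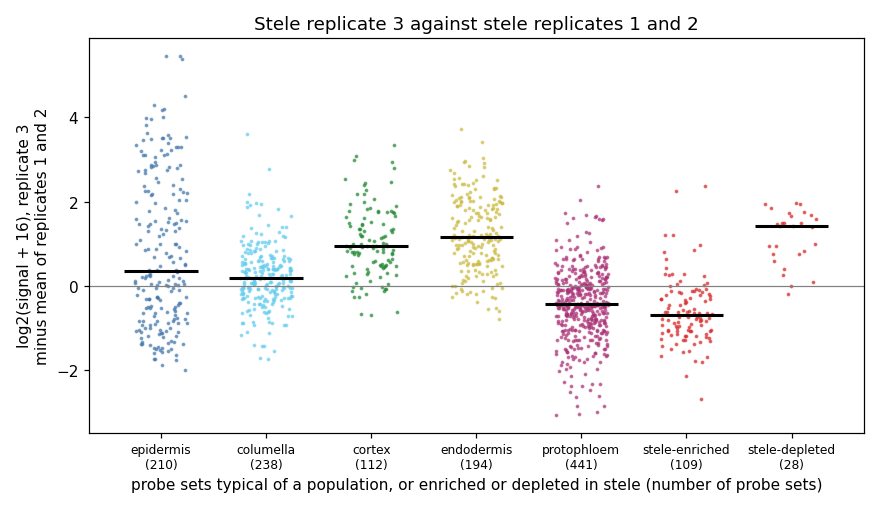
Each point is 1 probe set, and the vertical axis is the log2(signal + 16) of stele replicate 3 minus the mean of stele replicates 1 and 2, with the median as a black bar. Probe sets typical of endodermis and cortex lay mostly above 0 with medians of 1.15 and 0.95, stele-enriched probe sets had a median of -0.68 and stele-depleted ones of 1.41.

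Epidermal marker genes were high in replicate 3. EXPA7, a root hair expansin that loosens the wall, had signals of 116, 111 and 1092 in stele replicates 1 to 3, and EXPA18, its close relative, had 96.1, 90.9 and 1121. Replicate 3 thus exceeded every epidermis array, whose means were 499 ± 5.91 for EXPA7 and 390.1 ± 22.1 for EXPA18 (SD, n = 3). The summed signal of the 3 epidermis and root hair markers tested was 240.4, 235 and 2653 in the stele arrays and 3466 to 3993 in the epidermis arrays. The 5 endodermis markers summed to 639.6, 405 and 1149, against 7734 to 10249 in endodermis, and the 2 cortex markers to 54.5 to 133, against 2442 to 3323 in cortex. The 3 leading protophloem genes summed to 82.3, 58.5 and 31.6, against 14422 to 20920.4 in protophloem, and the root cap gene JRG21 had 20.8, 12.5 and 15.5, against 1488 to 3817 in columella. No marker was at 0 in any stele array. The part of these signals in the results below was not tested. The counts of higher, lower, enriched and depleted probe sets are given with and without replicate 3, as are those of some gene lists. Other list counts include replicate 3. The trimmed mean of the deposited signals was the same on all arrays, 250.02 to 250.03. The 5' to 3' ratio of the GAPDH control probe sets, a measure of RNA and copying quality, was 0.225 to 0.249 in the stele arrays and 0.0195 to 1.71 in the others. It differed by population, at 1.41 to 1.71 in epidermis, 0.385 to 0.504 in cortex and 0.0884 to 0.301 in columella. In endodermis it was 0.147 to 0.203 and in protophloem 0.0195 to 0.083.

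Few vascular genes could be checked against the label. Of 19 vascular patterning genes listed, 3 were named by a tested probe set, and 2 of these, AT5G24240 and LHW, were given as stele markers with results of these data known. Their levels are a description, and PHV alone was left as a check. AT5G24240, of the phosphatidylinositol 4-kinase gamma family, had 140.1, 141.0 and 345 in stele, while the 15 other arrays ran from 1.66 through a median of 3.97 to 36.1. The groups did not overlap. The log2 difference was 3.21 ± 0.29 (SE), and since the other arrays lie mostly under the offset of 16 its size depends on it, with 4.95 at an offset of 1 and 1.86 at 64. Of the other arrays only epidermis replicate 3 exceeded its 40th percentile, at 36.1 against 33.1. AT5G24240 thus passed the signal filter only through the stele arrays, and its standard-medium difference is a description. LHW (AT2G27230) had 544, 558 and 686 in stele and 149 to 492 elsewhere, again without overlap, with a log2 difference of 1.03 ± 0.28 (adjusted p = 0.0088). Its order by mean signal was stele 596 ± 78.0, endodermis 402 ± 125, protophloem 345 ± 173, columella 322 ± 121, cortex 235 ± 54.6 and epidermis 209.8 ± 32.4 (SD, n = 3 each), in which the 5 lower populations lay within each other's spread from one neighbour to the next. PHV, a class III homeodomain-leucine zipper factor of vascular patterning, had 364, 447 and 331 in stele and rose against the mean (log2 1.92 ± 0.22, adjusted p = 7.4e-06), and columella was as high at 373 ± 41.9. In bulk samples fewer cells of a type and less RNA per cell cannot be told apart.

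Of 20 listed genes of xylem and secondary wall only 2 were tested, and these were present but were not highest in stele. IRX15, needed for xylan in secondary walls, had 81.2, 78.5 and 99.4 in stele, below the 311 ± 95.0 of columella and above the other populations, whose means were at most 23.7. GUT2, also known as IRX10, a xylan xylosyltransferase, had 294, 202 and 237 in stele, 819.5 ± 116 in columella and at most 116 in the mean of any other population. Both rose against the mean of the others, with log2 differences of 1.41 ± 0.24 (adjusted p = 0.00035) and 0.58 ± 0.18 (adjusted p = 0.021), while columella was higher than stele by 1.64 and 1.69 in log2. Of 18 pericycle and 14 phloem genes listed, only LBD16 and CLE26 were tested. LBD16, a lateral root initiation factor of the pericycle, had 142, 81.3 and 207 within the range of the others, 20.4 to 775. CLE26, a peptide gene of protophloem, had 9.22, 36.4 and 21.8 against up to 3338 in protophloem. Neither gene passed the test. None of the 5 endodermis, 2 cortex and 3 epidermis markers passed either, and without stele replicate 3 1 marker of each of these lists fell, such as CCR2 of endodermis, a lignin precursor enzyme (log2 -1.80, adjusted p = 0.0005).

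Across all 16740 probe sets, 3578 (21.4%) were higher in stele than the mean of the others and 1948 (11.6%) were lower at an adjusted p under 0.05. These counts were 4358 and 2885 without stele replicate 3, 1925 and 986 without replicate 1, and 1635 and 779 without replicate 2. The share of higher among all called was 64.7%, and after quantile normalization of the arrays it was 52.6% (2872 higher and 2585 lower), since the median difference of all tested probe sets moved by -0.12, from 0.13 to 0.007. Set against each population singly, stele differed at 7896 probe sets (47.2%) from cortex, 6864 (41%) from protophloem, 6565 (39.2%) from epidermis, 6056 (36.2%) from endodermis and 5736 (34.3%) from columella. In each of these 5 comparisons more probe sets were higher in stele than lower, from 3053 against 2683 for columella to 4950 against 2946 for cortex. The median log2 difference of all tested probe sets was also above 0 in each, from 0.08 for columella to 0.25 for cortex, before quantile normalization.

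Enriched probe sets are those called higher and at least 2-fold above each of the 5 other means. There were 109 (0.651%), of which 50 named 1 gene, and in 86 of the 109 all 3 stele arrays lay above all 15 others, as did 300 (1.79%) of all tested probe sets. The probe set just inside the limit had a smallest difference of 1.00 in log2 and the one just outside 0.99. Replicate 3 was the lowest of the stele arrays at 86 of the 109 and the highest at 12. Without it 312 probe sets were enriched, 104 of the 109 among them.

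Several enriched genes encode secreted or wall-related proteins. The serine carboxypeptidase-like gene scpl35 had 1300.4, 1196 and 380.2 in stele and 14.6 to 178 in the others, a log2 difference of 3.35 ± 0.31 (adjusted p = 9e-07), and stele was at least 5.67-fold above every other mean. AT5G07030, an aspartyl protease family gene, was even across replicates at 1914, 1773 and 1695, above the 53.3 to 582 of the others (log2 3.42 ± 0.21, adjusted p = 1.7e-08). The subtilase gene AT4G20430 had 929, 729.7 and 382 against at most 225 elsewhere (log2 3.62 ± 0.30, adjusted p = 1.5e-07). Another subtilase, SBTI1.1, went the other way among replicates, with 359, 294 and 653, above its highest other array at 253 in columella. Of 8 subtilases tested 4 rose and 1 fell, and of 21 serine carboxypeptidase-like genes 6 rose and 4 fell, where 21.4% of all probe sets rose and 11.6% fell. The median log2 differences were 0.63 and 0.19, and without stele replicate 1 only 2 subtilases rose. In SBT4.12, a subtilase that rose against the mean (log2 1.14 ± 0.31, adjusted p = 0.0094), protophloem was far above stele, at 13731 ± 1219 against 2308, 1765 and 1831 in the stele arrays.

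Single members of wall gene families were enriched too. TBL36, of the family that acetylates wall polysaccharides, had 2332, 2134 and 966 in stele, all above the highest other array, a protophloem array at 879 (log2 3.09 ± 0.35, adjusted p = 6.2e-06). AT3G53190, a pectate lyase family gene, had 2473, 2762 and 1256 against 231 to 1103 elsewhere (log2 2.31 ± 0.24, adjusted p = 2.1e-06). The expansin EXPA15 had 2126, 2055 and 1334 and rose against the mean (log2 2.55 ± 0.18, adjusted p = 3.2e-08), while protophloem came close at 1288 ± 265. Of 14 expansins 3 rose, the share of all probe sets, and 4 fell, or 2 without stele replicate 2. The falls included EXLA1, an expansin-like gene with 168, 92.4 and 278 in stele against up to 8405 in protophloem (log2 -2.67 ± 0.31, adjusted p = 7.8e-06), and EXPA9 (log2 -1.94 ± 0.25, adjusted p = 3.5e-05). Of 18 trichome birefringence-like genes 4 rose and 2 fell, close to the 21.4% and 11.6% of all probe sets, and of 7 xyloglucan endotransglucosylases only XTH21 rose (log2 2.62 ± 0.47, adjusted p = 0.00049).

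**Figure D2:**
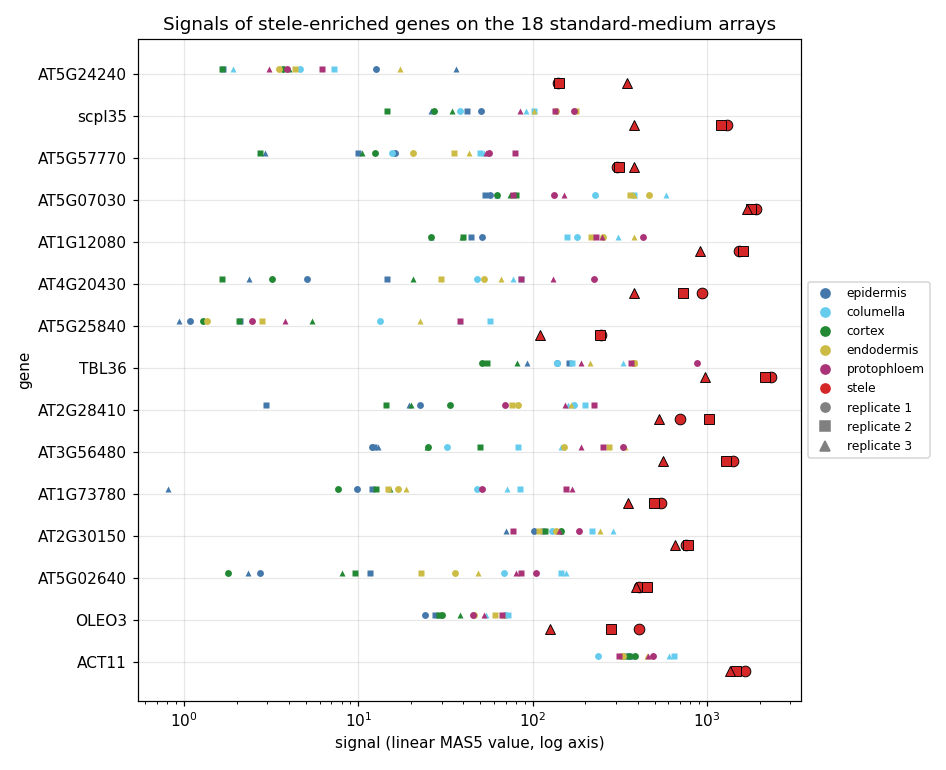
Signals of 15 stele-enriched genes on the 18 standard-medium arrays, on a log axis, with large red symbols for stele, colours for the other populations and symbol shapes for the replicates. The genes were picked so that the 3 stele arrays lie above the 15 others, and scpl35 shows the gap between stele replicate 3 (380.2) and replicates 1 and 2.

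Other enriched genes act in lipids, the cytoskeleton and signalling. AT1G73780, of the lipid-transfer protein superfamily, had 541, 498 and 353 against 0.808 to 167 elsewhere (log2 3.34 ± 0.26, adjusted p = 8.2e-08). OLEO3, an oleosin of oil bodies, had 405, 281 and 126 above a range of 24.1 to 72.0 (log2 2.09 ± 0.23, adjusted p = 5.5e-06). The actin gene ACT11 had 1652, 1473 and 1357, and its other populations were close to each other, with means from 357 to 496 (log2 1.90 ± 0.22, adjusted p = 1e-05). AT2G37050, a leucine-rich repeat receptor kinase gene, had 1145, 1202 and 1037 against 0.933 to 665 (log2 2.89 ± 0.24, adjusted p = 2.4e-07), and the kinase gene PID2, a relative of PINOID, had 149, 149 and 109 against 0.585 to 66.3. AT2G30150, a glucosyltransferase gene, had 758, 781 and 656 above a highest other value of 289.9, whereas of 33 glucosyltransferases tested only 2 rose and 6 fell. Without stele replicate 3 the family counts were 1 and 9. AT5G57770, AT1G12080, AT5G25840, AT2G28410, AT3G56480 and AT5G02640, picked because all 3 stele arrays lay above the 15 others, had log2 differences from 3.02 to 3.40. Of these, AT5G25840 passed the signal filter through the stele arrays alone, so its standard-medium enrichment is a description. Its highest other signal was 57.1, in columella replicate 2, where the 40th percentile was 58.7. SAH7, a pollen allergen-like secreted protein gene, had 1669.7, 1526 and 1501 against 33.5 to 548 (log2 2.88 ± 0.20, adjusted p = 3.1e-08).

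Genes of transcription, replication and the nucleolus formed another part of the enriched set, and replicate 3 was the lowest stele array in each one named with its signals here. NRPA2, the second-largest subunit of RNA polymerase I, had 1993, 1674 and 673 in stele and 136 to 665 elsewhere, which left replicate 3 just above the highest epidermis array (log2 1.87 ± 0.28, adjusted p = 9.9e-05). PRL, the MCM7 subunit of the replicative helicase, had 1123, 1058 and 539 against 152 to 409.6 (log2 1.56 ± 0.20, adjusted p = 3.5e-05). POLA3, a primase subunit, had 455, 534 and 211, and its replicate 3 lay below the highest endodermis array at 225 (log2 1.26 ± 0.22, adjusted p = 0.0004). AT3G12860, of the NOP56 family of nucleolar proteins, had 808, 832 and 269 against 63.4 to 386, and AT4G32910, a nuclear pore gene, 1500.4, 1622 and 588 against 152 to 699. Among 12 RNA polymerase subunits of all classes 9 rose and none fell, where 21.4% of all probe sets rose and 11.6% fell. Their median log2 difference was 0.93 against 0.13 over all tested probe sets. The summed signal of the 12 was 8020.4, 8985 and 3997 in stele, with replicate 3 within the 1597 to 4703 of the other arrays. Against single populations from 5 (protophloem) to 10 (cortex) of the 12 were higher and none was lower. AUR1, an Aurora kinase of mitosis, also rose (log2 1.35 ± 0.23, adjusted p = 0.00035). Of 5 histone genes 1 rose, HTB4 (log2 1.10 ± 0.25, adjusted p = 0.0032), which is near the 21.4% of all probe sets. Lists of RNA polymerase I and nucleolar proteins (4 of 10 loci tested, 4 higher) and of replication genes (3 of 23 loci tested, 3 higher) were drawn up after the values of some members had been seen.

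Genes of protein synthesis and folding were higher against the mean of the others, but not against epidermis. Of 127 cytosolic ribosomal protein loci listed, 77 were tested, 67 rose and none fell, where 21.4% of all probe sets rose. The median log2 difference of the 77 was 0.90, with a range of 0.32 to 1.82. Their summed signal was 479335, 450132 and 236019.8 in the stele arrays, 368156 to 406244 in epidermis and 143803 to 246525 over the remaining populations. Replicates 1 and 2 thus lay above every other array and replicate 3 within the range of endodermis and protophloem. Against epidermis alone no ribosomal protein gene was higher and 8 were lower, with a median of -0.06, while all 77 were higher against cortex and 70 against columella. The count of 67 was 76 without replicate 3, 30 without replicate 1 and 25 without replicate 2. AT3G10610, a small-subunit protein gene, had 4586, 3899 and 1634 against 491 to 2527 (log2 1.82 ± 0.26, adjusted p = 8.6e-05). Ribosomal protein genes exist in near-identical copies, and probe sequences were not analysed, so signal can be shared between copies.

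The CCT chaperonin, which folds actin and tubulin, moved in the same way. Of its 9 loci 8 were tested and all 8 rose, with a median log2 difference of 1.29, where 21.4% of all probe sets rose. The summed signal was 26035, 32076 and 20311 in stele, 19289.8 to 22052 in epidermis and 5639 to 12877 elsewhere. AT1G24510, the epsilon subunit gene, had 4784, 7418 and 3716, and it was among the genes whose stele arrays all lay above the others, of which the highest was 2811 in epidermis (log2 1.31 ± 0.18, adjusted p = 5.6e-05). Against epidermis 1 of the 8 was higher, and against each of the other 4 populations all 8 were. Of 7 tubulins 3 rose, where 21.4% of all probe sets did, among them TUB6 (log2 0.67 ± 0.18, adjusted p = 0.0099). Their summed signal of 10603 to 11038 in stele lay below epidermis (12045 to 12362) and cortex (16092 to 16929.6) and above the other populations. Against cortex alone 2 tubulins were higher and 2 lower, with a median of -0.14. The ribosomal and chaperonin lists, and 3 lists drawn up with them of translation factors (2 of 4 higher), proteasome subunits (1 of 2 higher) and the vacuolar proton ATPase (1 of 6 lower), were written with earlier values in view.

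**Figure D3:**
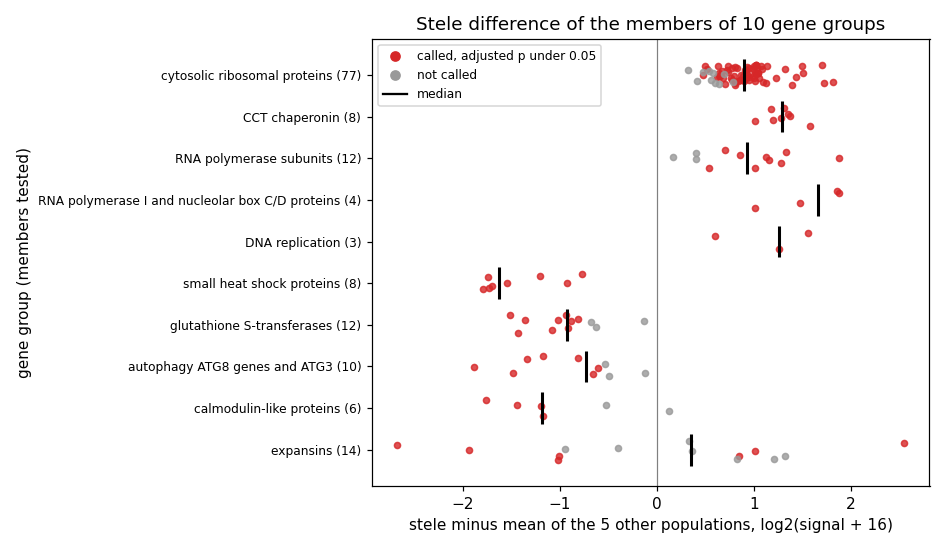
Each point is 1 tested member of a gene group, placed by its log2 difference between stele and the mean of the 5 other populations, red where called and grey where not, with the group median as a black bar. All 77 ribosomal protein genes lie above 0 and all 8 small heat shock protein genes below it, while expansins spread from -2.67 to 2.55.

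Some auxin response genes were higher in stele than the mean of the others. Of 48 listed genes of auxin response and transport 8 were tested, 3 rose and none fell, where 21.4% of all probe sets rose. Against columella alone 3 of the 8 were higher and 4 lower, and the summed signal of 1176 to 1333 in stele lay below columella (1709 to 2709). IAA29, a transcriptional repressor of auxin signalling, had 184, 196 and 204 against 2.71 to 167 in the others, without overlap (log2 1.86 ± 0.21, adjusted p = 6.5e-06). IAA31 had 82.1, 88.2 and 118 against 1.63 to 78.0, and IAA18 had 331, 346 and 312 within a range of 9.77 to 453, with endodermis (349.8 ± 92.0) and protophloem (359 ± 48.0) as high. All 3 were lowest in cortex or epidermis. IAA30 had 120.3, 123 and 115 and did not pass the test (adjusted p = 0.11), and the cytokinin response regulator ARR15, with 47.2, 56.8 and 33.9, did not either (adjusted p = 0.079). Neither of the 2 sugar transporters tested from that list passed. CLE41, which encodes a peptide that keeps procambial cells dividing, fell (log2 -1.23 ± 0.22, adjusted p = 0.00049), with 97.9, 106 and 93.7 in stele against 2795 ± 534 in protophloem, though endodermis was lower than stele at 67.3 ± 31.7.

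Depleted probe sets, called lower and at least 2-fold below each other mean, numbered 28 (0.167%), of which 13 named 1 gene. In 9 of the 28 all 3 stele arrays lay below all others, as did 42 (0.251%) of all tested probe sets. The probe set just inside the limit stood at -1.01 and the one just outside at -0.98. Replicate 3 was the highest stele array at 25 of the 28, and without it 105 probe sets were depleted, 27 of the 28 among them. AT1G50060, of the family of pathogenesis-related secreted proteins, had 7.65, 6.11 and 73.2 in stele and 64.1 to 14070.1 elsewhere, with columella at 9705 ± 3798 (log2 -4.14 ± 0.54, adjusted p = 3.2e-05). Stele replicates 1 and 2 lay under the offset of 16 there, so the fold depends on it. AT4G29690, a phosphodiesterase family gene, had 188, 160 and 551 and lay below all 15 other arrays, 600.5 to 1850.4 (log2 -2.03 ± 0.27, adjusted p = 3.5e-05). AT5G24620, a thaumatin-like gene, had 149.9, 145 and 127 against 269 to 3594, the highest in protophloem (log2 -1.82 ± 0.22, adjusted p = 1.1e-05). AT4G27652 had 305, 286 and 854 and AT4G30490, an ATPase gene of the AFG1 family, 147, 187 and 592, and in both only replicate 3 reached the lowest of the other arrays.

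**Figure D4:**
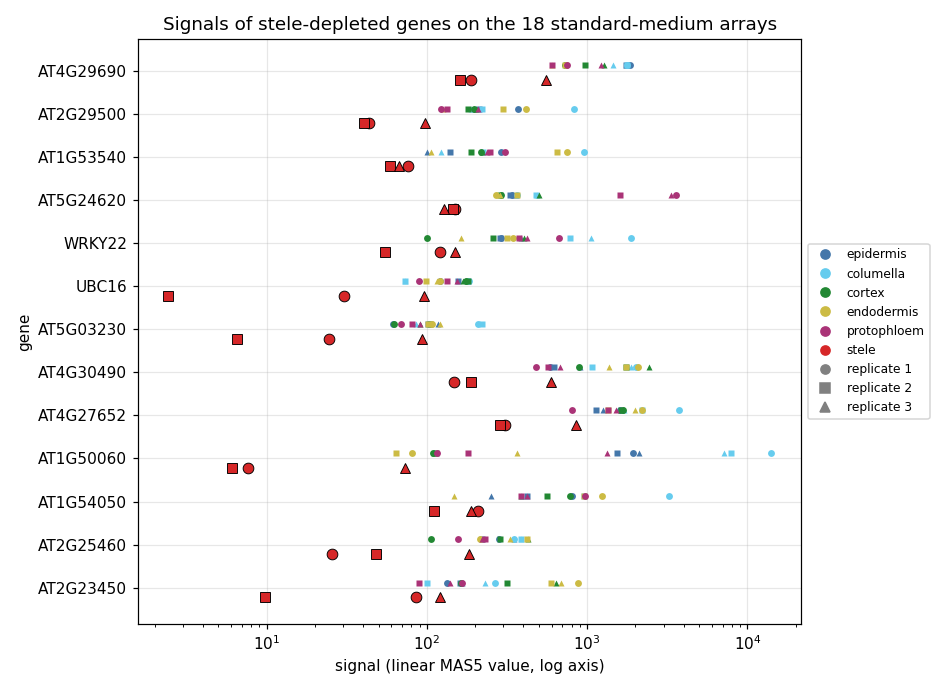
Signals of the 13 stele-depleted genes on the 18 standard-medium arrays, on a log axis, drawn as for the enriched genes. Stele replicates 1 and 2 lie at the low end of each gene, and replicate 3 (triangle) is nearer to the other populations in genes such as AT4G27652 (854 against 305 and 286).

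Small heat shock protein genes, whose products hold unfolding proteins, were low in stele. Of 16 loci 8 were tested and all 8 fell, with a median log2 difference of -1.62, where 11.6% of all probe sets fell. The count was 4 without stele replicate 1, 2 without replicate 2, 7 without replicate 3 and 5 without protophloem. Their summed signal was 513, 293 and 565 in the stele arrays and ran from 701 through a median of 1587 to 6765 in the others, so the sums did not overlap. AT2G29500 had 43.7, 40.7 and 96.8 against 123 to 832 (log2 -1.74 ± 0.36, adjusted p = 0.0015), and AT1G53540 had 76.5, 58.5 and 66.5 against 100.2 to 959.9 (log2 -1.70 ± 0.48, adjusted p = 0.011). The columella arrays differed among themselves, from 1064 to 6765 in the sum. Against single populations the calls were fewer, from 3 of 8 against epidermis and cortex to 6 of 8 against columella and protophloem. This list was drawn up after 3 of its genes had been seen among the depleted ones.

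Most glutathione S-transferases, which conjugate toxic compounds, were lower than the mean of the others. Of 12 tested 9 fell and none rose, with a median of -0.92, where 11.6% of all probe sets fell. The count was 4, 5 and 11 without stele replicates 1, 2 and 3. Against protophloem alone 3 were lower and 1 higher, with a median of 0.21. The summed signal was 1702, 1681 and 5570.4 in stele against 7206 to 15534 in the others. GSTU25 had 487, 350.4 and 926 against up to 5145 in columella (log2 -1.51 ± 0.22, adjusted p = 0.00011), and protophloem was as low at 459 ± 119.7. GSTU18 had 74.5, 94.4 and 59.3 and its fall rests on protophloem, at 3869 ± 782. Without protophloem its log2 difference was 0.21. Of 10 autophagy genes of the ATG8 and ATG3 families 7 fell, with a median of -0.73, and 4 fell without protophloem. Against epidermis alone 1 was lower and 2 were higher, with a median of 0.20. ATG8H had 221, 189 and 832 against 474 to 4895 (log2 -1.88 ± 0.33, adjusted p = 0.00045), the highest in protophloem, and the summed signal of the family was 2904, 3197 and 4907 in stele and as low in epidermis, at 2875 to 3815.

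Single WRKY factors and calmodulin-like genes were lower too. WRKY22, a defence-related factor, had 121, 54.6 and 150.5 against 99.7 to 1882 (log2 -1.83 ± 0.34, adjusted p = 0.00061). WRKY6 had 72.9, 42.3 and 665, a spread among stele arrays of over 10-fold, against a median of 970.4 in the others, although protophloem was lower still at 28.6 ± 33.6. Of 5 WRKY factors 2 fell, where 11.6% of all probe sets did, and the count was 1 without stele replicate 1 or 2 and 4 without replicate 3. Of 6 calmodulin-like calcium sensors 4 fell with a median of -1.19 (1, 2 and 5 without stele replicates 1, 2 and 3). Among them was CML38, with 54.0, 93.5 and 284 against 52.0 to 1808. The other families tested held members both ways or few calls. Cytochrome P450s (2 of 13 higher, 3 lower), SWEET sugar transporters (2 of 11 lower), beta-glucosidases (1 of 10 higher, 2 lower), tetraspanins (3 of 12 higher, 1 lower), ubiquitin-conjugating enzymes (1 of 11 higher, 4 lower) and bZIP factors (1 of 9 higher, 2 lower) were of this kind. Without stele replicate 3 the lower counts were, in the same order, 6, 3, 3, 2, 4 and 4. Of 69 plastid-encoded genes 1 was higher and 8 were lower, and of 21 mitochondrion-encoded genes 1 was higher and 2 were lower, where 21.4% and 11.6% of all probe sets were. The plastid-encoded direction depended on stele replicate 3. Without it 9 plastid-encoded genes were higher and 5 lower, and their median log2 difference moved from -0.15 to 0.15. The mitochondrion-encoded genes then had 2 higher and 2 lower. Against protophloem alone 66 of the 69 plastid-encoded genes were lower and none higher (median -2.26), where 41% of all probe sets differed. So were 20 of the 21 mitochondrion-encoded genes, with none higher (median -2.22). Of the 69 plastid-encoded genes 46 were lower against endodermis, where 2443 of all 16740 probe sets were. Against epidermis 35 were higher, against columella 18 and against cortex 14, where 4099, 3053 and 4950 of all 16740 were. The cortex count was thus a smaller share than that of all probe sets.

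Which population came next to stele was uneven. Among the 109 enriched probe sets the next highest mean was columella at 39, protophloem at 38, endodermis at 17, epidermis at 10 and cortex at 5. When protophloem, itself a part of the vascular tissue, was left out of the comparison, 249 probe sets were enriched, including all 109. Of the 140 added, protophloem was at or above stele at 72 and below it by less than 2-fold at 68.

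The genes most like the given markers over the 18 arrays were found by Pearson correlation, as a description. For AT5G24240 they were ACT11 at 0.846, AT5G57770 and SGP2 at 0.789, and AT1G24510 and AT2G30150 at 0.780. For LHW they were AT3G02400 and AT3G58570 at 0.813, AT4G28230 at 0.806, AT1G52540 at 0.787 and AT5G07030 at 0.786. The arrays share their populations, and in all 5 genes most like AT5G24240 the stele arrays lay above the 15 others.

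The salt-treated arrays share no array with the comparison above, and they gave the same direction for most enriched genes and for fewer depleted ones. On them 950 (5.68%) of the 16740 probe sets were higher in stele and 665 (3.97%) lower. Of the 109 enriched probe sets, 107 had a positive difference and 82 (75.2%) were called higher, 66 to 72 when any 1 salt-treated stele array was left out. Their median log2 difference was 2.31 on standard and 1.83 on salt arrays. AT5G24240 had 282, 435 and 399.5 in salt-treated stele against at most 15.9 in the others, and AT5G25840 had 939, 763 and 606 against at most 386. Of the 28 depleted probe sets, 19 had a negative difference and 5 were called lower, with a median of -1.83 on standard and -0.40 on salt arrays. AT1G50060 (log2 -3.79, adjusted p = 0.0015) and AT4G29690 (log2 -1.67, adjusted p = 0.0026) were among the 5.

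**Figure D5:**
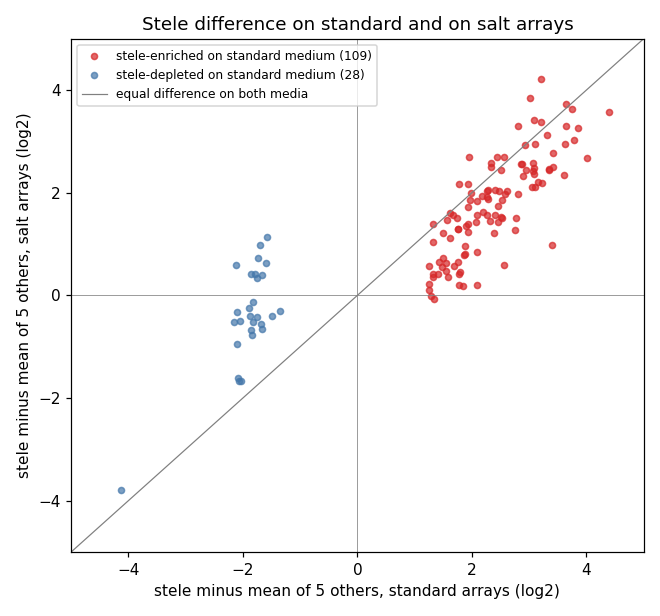
Each point is 1 probe set enriched (red) or depleted (blue) in stele on standard medium, placed by its log2 difference between stele and the mean of the 5 others on standard arrays (horizontal) and on salt arrays (vertical), with the line of equal difference. Most red points lie above 0 on the vertical axis, with a median of 1.83, and the blue points lie on both sides of 0, with a median of -0.40.

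The difference between the media was tested directly, and 114 probe sets (0.681%) passed. Among them were 5 of the 109 enriched probe sets, all with a smaller contrast on salt, and 5 of the 28 depleted, all less negative on salt. The count of 114 was not stable to leaving out 1 stele array. It was 1849 without standard stele replicate 3, and 9 and 3 without replicates 1 and 2. Without salt-treated stele replicates 1, 2 and 3 it was 4, 1 and 136. Small heat shock protein genes summed to 4774, 5878 and 2738 in the salt-treated stele arrays, within the 548 to 9250.1 of the other salt arrays, and 2 of the 8 had a called difference between media. Ribosomal protein genes had a median difference of 0.46 on salt arrays, and none of the 77 was called there. No RNA polymerase subunit (12 tested, median 0.33), RNA polymerase I or nucleolar gene (4, 0.42) or replication gene (3, 0.47) was called there either. Of the 8 CCT genes 1 was called higher on salt arrays, with a median of 0.87, where 5.68% of all probe sets were higher. EXPA7 was again high in replicate 3 alone, at 961 against 30.8 and 26.9 in salt-treated stele replicates 1 and 2.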

How the data were processed

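The deposited values are intensities on a linear scale, which the authors made with MAS5, as the submitters' processing notes state, and its version is not given in the sources used here. Amplification took 2 cycles per the labels' protocols. Every array has the same trimmed mean, so a general rise or fall of transcripts is scaled away, and low signals cannot be told from background without detection calls, not used here. The table holds 22810 probe sets on 36 arrays. After 64 controls were left out, 13513 probe sets named exactly 1 gene, and only these are named, with symbols matched through RefSeq TAIR10.1 for 13436; 503 named several genes and 8730 none. The test covered the 16740 probe sets that exceeded an array's 40th percentile on 3 or more standard arrays. The 3 stele arrays alone could meet this limit, so a probe set high only in stele could enter through them.

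Values were taken as log2(signal + 16), which understates changes of low signals. limma 3.58.1 (R 4.3.3) fitted a mean per population to the 18 arrays, using lmFit and eBayes with trend on 12 residual degrees of freedom. A call needs a two-sided p under 0.05 after Benjamini-Hochberg adjustment over all tested probe sets. The salt arrays were fitted alike, and the difference between media over all 36. The number of arrays limits the precision.

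Genes named are those with 1 gene that are the 15 enriched and 10 depleted with the largest smallest difference and no overlap (only 4 depleted genes met this, and the other depleted genes are shown as well), the 8 enriched with the highest stele signal, up to 4 members per list by adjusted p, all marker genes tested and 5 genes most like each given marker. AT2G37050, PID2, AT4G32910, POLA3 and other enriched genes outside this rule were named after their values were seen. The members and lists were chosen with earlier results of these data known, and 5 family patterns were corrected after the gene names were seen. Marker lists had few members named in the table, and families with none gave no result. Alternatives were quantile normalization, offsets of 1 and 64, other filters, all 36 arrays, array weights, a replicate block, a GAPDH covariate, protophloem left out, the others as 1 group and each array left out. The code was tested on simulated data. By the correlation of deviations, replicate numbers paired the stele arrays with epidermis, columella and endodermis (each pair over 0.1) but not with cortex and protophloem, so the block stayed an alternative. Tables and figures used Python 3.11.15, pandas 2.3.3, numpy 2.4.6 and matplotlib 3.10.9.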

Additional observations from a re-analysis of the deposited data

Results flagged for a closer look

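In 7 named genes the stele contrast differed between the media, by the limma test of salt minus standard over all 36 arrays. AT3G56480 fell from a log2 difference of 3.40 on standard to 0.98 on salt arrays, a change of -2.42 ± 0.46 (SE, adjusted p = 0.015), with stele signals of 1401, 1287 and 561 on standard medium and 170.4, 131 and 212 with salt. AT3G12860, of the NOP56 family, changed by -1.68 ± 0.41 (adjusted p = 0.046), from 808, 832 and 269 to 141, 99.4 and 88.8.

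The other 5 had a larger or less negative contrast on salt. The heat shock protein genes AT5G51440 and AT1G52560 changed by 2.45 ± 0.51 (adjusted p = 0.029) and 2.77 ± 0.67 (adjusted p = 0.046). LBD16 changed by 2.00 ± 0.44 (adjusted p = 0.031), from 142, 81.3 and 207 to 482, 676 and 708. CCR2 changed by 2.74 ± 0.58 (adjusted p = 0.029), with 7.39, 7.33 and 133 in standard and 931, 1139 and 531 in salt-treated stele. UGT73B4 changed by 1.77 ± 0.44 (adjusted p = 0.048). These calls were not stable to leaving out 1 stele array. None of the 7 passed without standard stele replicate 1 (adjusted p 0.12 to 0.25) or 2 (0.093 to 0.26), or without salt-treated stele replicate 1 (0.072 to 0.13) or 2 (0.12 to 0.22). Without salt-treated stele replicate 3, 4 passed, and without standard stele replicate 3 all 7 did (0.0002 to 0.0059), by the same limma test.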

How the results depend on the processing

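Treating the 15 others as 1 group moved the counts most: it puts their differences into the error, and left 81 higher and 13 lower probe sets. Leaving out 1 array at a time gave 1635 to 4358 higher, 779 to 2885 lower, 92 to 312 enriched and 16 to 105 depleted probe sets, with the lowest counts without stele replicate 2, other than 92 enriched without replicate 1, and the highest without stele replicate 3. Leaving out each stele array gave 3788 to 7664 calls against endodermis, 5215 to 7453 against epidermis, 4328 to 6840 against columella, 6230 to 8881 against cortex and 5843 to 7318 against protophloem. For the salt arrays the range was 675 to 1271 calls (1615 with all arrays), and for the difference between media 1 to 1849 (114), where 2953 had an unadjusted p under 0.05. Array weights, of which stele replicate 3 had the lowest (0.167), gave 3204 lower, 223 enriched and 83 depleted. Without protophloem there were 249 enriched and 140 depleted. An offset of 64 gave 67 enriched and 12 depleted, and an offset of 1 gave 64 depleted. A replicate block gave 3776 higher, 2065 lower, 109 enriched and 28 depleted. The deviations of same-numbered arrays from their group means correlated with those of stele at 0.13 to 0.35 for epidermis, columella and endodermis, all 9 pairs over 0.1, and at -0.06 to 0.22 for cortex and protophloem, with 1 of 6 over 0.1. The numbers thus paired stele with 3 populations and not with the others, and an array's own number gave the best match in 9 of 15. With the block, calls were 6811 against epidermis, 6059 against columella and 6421 against endodermis, and no named gene lost its call against the mean of the others. Of 164 named genes called, 125 lost the call with the others as 1 group, 37 without stele replicate 2, 30 without replicate 1 and at most 13 under any other alternative. Without protophloem the sign turned for CLE26 (0.69), AT3G20450 (0.23), GSTF4 (0.77) and GSTU18 (0.21). Low signals, under the 40th percentile of 32.4 to 66.3, have no reliable fold.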
